A study of Mus musculus with 4 samples.

Results

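The genes described here encode the nuclear subunits of respiratory complexes II to V and cytochrome c in the hearts of 8-week-old mice, 2 wild-type and 2 heterozygous for the R567W mutation of the chromatin organiser CTCF. Members were taken by a rule on gene symbols, set with earlier results of these data known. The rule took Sdha to Sdhd, symbols beginning with Uqcr, Cyc1, Cycs, symbols beginning with Cox4 to Cox8, and symbols beginning with Atp5. It left out the 10 rows named as pseudogenes (-ps). This gave 51 rows, carrying 50 symbols, of the 55401 gene rows in the table. Complex II held 4 rows, complex III 9, cytochrome c 1, complex IV 19 and complex V 18. All 51 matched a gene of GENCODE release M21 (mouse genome GRCm38, also called mm10).

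The heterozygous mice (Ctcf+/R567W) carry the R567W change, made by CRISPR/Cas9, on 1 Ctcf allele in every cell of the body, and the methods place the line on C57BL/6N. The wild-type mice carry no edited allele, and the labels give no other treatment for either group. The library protocol, written in the methods for embryonic hearts, captured mRNA with beads, and the labels name the tissue only as heart. A lower level can mean fewer cells of a type or less RNA per cell, and bulk values cannot tell these apart. The labels number the replicates of each group but name neither sex nor litter, so neither could be allowed for. The p-values of single genes rest on the spread between hearts of a group, drawn partly from that of other genes. They speak only of these 4 hearts.

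The respiratory chain of the inner mitochondrial membrane passes electrons from succinate (complex II) and from the other dehydrogenases through ubiquinol to complex III, then by cytochrome c to complex IV, which reduces oxygen. Complexes III and IV pump protons, and complex V, the ATP synthase, uses the proton gradient to make ATP. Complex II is encoded wholly in the nucleus, whereas complexes III, IV and V also hold subunits made from mitochondrial DNA. Cardiac muscle depends on this machinery for most of its ATP, and several complex IV subunits exist as a form found in heart and skeletal muscle beside a form found in most tissues.

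The proximal promoters of the muscle and general forms of subunits 7a and 8 are shown first, since the isoform shares below turn on these genes. Each run is the 150 bases before the RefSeq transcription start on GRCm38.p6, written 5′ to 3′ on the strand of the gene, with every CG dinucleotide in capitals. The muscle form Cox8b (chr7:140900447-140900596, minus strand) held 1 CG and the general form Cox8a (chr19:7217617-7217766, minus strand) held 10. The muscle form Cox7a1 (chr7:30184021-30184170, plus strand) held 4 and the general form Cox7a2 (chr9:79759854-79760003, minus strand) held 11.
Cox8b: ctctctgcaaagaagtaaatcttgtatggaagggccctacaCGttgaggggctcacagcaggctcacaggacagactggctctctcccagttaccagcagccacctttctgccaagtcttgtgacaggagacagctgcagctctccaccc
Cox8a: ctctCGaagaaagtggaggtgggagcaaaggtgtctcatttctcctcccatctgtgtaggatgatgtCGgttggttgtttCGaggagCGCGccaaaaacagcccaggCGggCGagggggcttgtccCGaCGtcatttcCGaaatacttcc
Cox7a1: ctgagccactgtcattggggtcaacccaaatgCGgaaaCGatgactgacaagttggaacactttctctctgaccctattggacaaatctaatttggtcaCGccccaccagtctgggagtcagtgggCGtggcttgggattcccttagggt
Cox7a2: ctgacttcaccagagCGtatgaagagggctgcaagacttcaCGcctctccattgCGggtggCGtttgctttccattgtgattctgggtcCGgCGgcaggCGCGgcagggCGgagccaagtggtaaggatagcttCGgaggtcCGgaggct

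Values are given as TPM (RSEM's length-corrected transcript abundance), which allow levels of different genes to be compared, and which keep no sequencing depth: the depth of the libraries is unknown here. In each library 19916 to 20633 genes were above 0. Mitochondrially encoded transcripts (symbols beginning with mt-) took 64.7% and 61.1% of all TPM in wild-type hearts against 68.6% and 62.6% in heterozygous ones, and nuclear copies of those genes took 14.1% and 14.9% against 17.2% and 19.8%. The levels below are therefore TPM divided by a median-of-ratios factor for each library ("scaled TPM"), and fold changes are on the log2(scaled TPM + 1) scale, heterozygous minus wild-type. Ctcf itself measured 6.15 and 5.99 scaled TPM in wild-type hearts against 7.48 and 5.71 in heterozygous ones (log2 fold change 0.09, SE 0.16). The edit changes 1 residue of the protein, which a transcript level cannot check. The defining cardiomyocyte markers Myh6, Myl2, Myl3, Tnnt2, Tnni3, Actc1, Ttn and Ryr2 were all well above 0, and the skeletal muscle myosins Myh1, Myh2 and Myh4 were listed at 0 in every library.

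Across the set, the subunit genes tended to lower values in the heterozygous hearts, but no single gene passed the test. Of the 51 rows, 47 had a mean of at least 1 TPM and were tested with limma, and the other 4 (Cox6c2, Cox7b2, Cox8c and the second row of Atp5o) were listed at 0 in every library. A call needed an adjusted p under 0.05 and a fold above 1.5. By that rule 3 of 10036 tested genes were lower (0.0299%) and 0 higher (0%), none of them a member. The 3 were Gm8186, Gm14325 and a row of Zc3h11a, named after their values were seen. With TPM as deposited the same rule gave 11 lower and 2 higher genes, and still 0 members. The smallest adjusted p of a member was 0.286, in Atp5c1.

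Short of a call, 42 of the 47 tested members had a negative fold change, and the median was -0.30 (0.813-fold), against -0.01 over all tested genes. At an unadjusted p under 0.05, 11 members were lower (23.4%), where 6.08% of all tested genes were lower, and 0 members were higher, where 6.22% of all genes were. In 27 members (57.4%) the lower wild-type heart stood above both heterozygous hearts, a pattern seen in 24.0% of all tested genes, and in 0 members did both lie over both wild-type hearts, against 23.0% of all genes. The remaining 20 members overlapped between the groups.

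The heterozygous hearts were not alike in these genes. Heterozygous replicate 1 was below heterozygous replicate 2 in 46 of 47 members, with a median gap of 0.38 on the log2 scale, whereas the same pair of libraries split 5067 of 10036 over all tested genes. The mean log2 level of the 47 members was 8.14 and 8.21 in wild-type hearts against 7.69 and 8.05 in heterozygous ones, so both heterozygous hearts were lower, the first by far the more. The difference of the group means was -0.30 (two-sided exact permutation p = 0.333, which no split of 2 against 2 samples can go below). Heterozygous replicate 1 was under both wild-type hearts in 42 members (89.4%) and heterozygous replicate 2 in 27 (57.4%), where 40.8% and 40.3% of all tested genes showed the same. Fits without 1 heart leave a single heart in its group, so only effect sizes are given here. Without heterozygous replicate 1 the median fold change was -0.15 and 29 members were negative, against 52.2% of all tested genes. Without heterozygous replicate 2 the values were -0.53 and 47, against 50.5%. Without wild-type replicate 1 they were -0.39 and 41, against 51.3%, and without wild-type replicate 2 they were -0.29 and 44, against 53.3%.

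**Figure D1:**
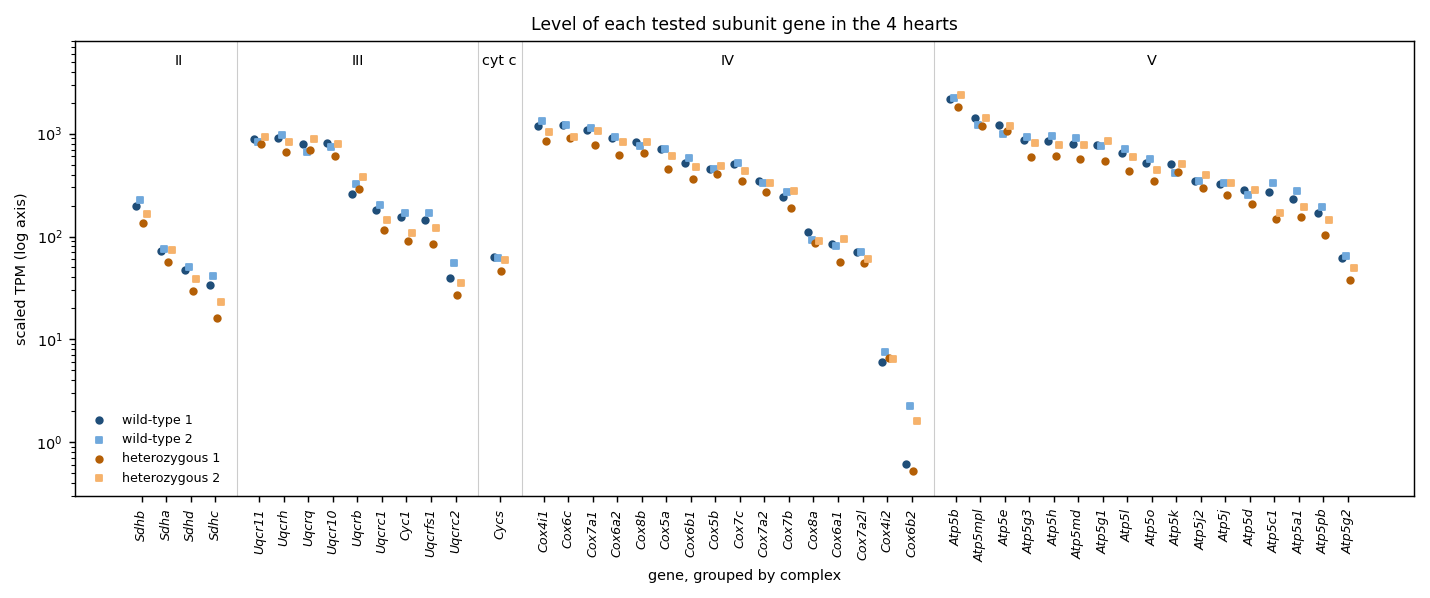
Scaled TPM (log axis) of the 47 tested subunit genes, grouped by complex and ordered by mean level, with 1 point for each of the 2 wild-type and 2 heterozygous hearts. Heterozygous replicate 1 is below heterozygous replicate 2 in 46 of the 47 genes.

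Markers of other cell types were read from the same libraries. The summed scaled TPM of the 8 cardiomyocyte markers was 24628 and 22860 in wild-type hearts against 19758 and 23466 in heterozygous ones, lowest in the library in which the subunit genes were lowest. Of those 8 markers, 3 were lower in both heterozygous hearts, as were 24.0% of all tested genes. The largest part of the sum, Myh6, overlapped, with 9484 and 9120 against 9096 and 10473. The other markers summed to 15143 and 13740 against 10662 and 12994. The 4 atrial markers summed to 810, 2340, 1910 and 3256 in the same order, and the 5 erythroid markers to 934, 981, 962 and 2104. Summed endothelial markers ranged from 262 to 266 in wild-type and from 296 to 341 in heterozygous hearts. Most of that sum was Egfl7 (198 and 192 against 234 and 275). Of the 6 endothelial genes 2 were higher and 2 lower without overlap, against 23.0% and 24.0% of all tested genes. The median fold change of the 6 was -0.08. Fibroblast markers ranged from 64.8 to 86.0 and from 58.6 to 63.1, and mural markers from 56.4 to 62.55 and from 39.85 to 56.4. Of the 6 fibroblast genes 3 were lower without overlap and 0 higher, and of the 4 mural genes 2 and 0. Over all tested genes 24.0% were lower and 23.0% higher in this way. The median fold changes were -0.22 and -0.19, beside -0.20 for the cardiomyocyte markers. Leukocyte markers ranged from 17.63 to 17.99 and from 14.44 to 19.98, adipocyte markers from 5.85 to 6.22 and from 5.59 to 6.40, and skeletal muscle markers from 1.76 to 2.44 and from 1.99 to 2.67. No gene of these lists was called, and their part in the subunit values was not tested.

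Complex II, succinate dehydrogenase, had the lowest median of the 4 complexes, at -0.52 over its 4 genes. All were negative, and 3 were lower without overlap between the groups, as were 24.0% of all tested genes. The median of the complex was -0.35 without heterozygous replicate 1 and -0.70 without heterozygous replicate 2. Sdhc encodes one of the membrane anchors that hold the haem and the ubiquinone site. It measured 33.8 and 41.7 scaled TPM in wild-type hearts against 16.1 and 23.2 in heterozygous ones, the heterozygous mean being 47.9% below the wild-type mean. Both heterozygous hearts were lower, at a log2 fold change of -0.92 (SE 0.22, limma adjusted p = 0.307), the most negative of all members. The other anchor, Sdhd, measured 47.6 and 50.9 against 29.3 and 38.6, with no overlap (-0.53, SE 0.19, limma adjusted p = 0.368). Sdhb, the iron-sulphur subunit and the most abundant of the complex, measured 199 and 225 against 134 and 166, again without overlap (-0.50, SE 0.20, limma adjusted p = 0.392). The flavoprotein Sdha, the catalytic subunit, overlapped between groups, with 71.8 and 75.7 against 56.6 and 74.3 (-0.18, SE 0.20, limma adjusted p = 0.715).

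Complex III, the cytochrome bc1 complex, differed among its subunits. The genes of its redox and core proteins were lower in both heterozygous hearts, and several of its small accessory subunits were not. The difference between these kinds of subunit was not tested. Cyc1, the cytochrome c1 haem protein, measured 154 and 169 scaled TPM in wild-type hearts against 89.8 and 107 in heterozygous ones (-0.71, SE 0.19, limma adjusted p = 0.322). Uqcrfs1, the Rieske iron-sulphur protein, measured 144 and 169 against 84.1 and 120, with a log2 fold change of -0.63. Both of these redox carriers therefore lay without overlap. The core proteins gave the same order: Uqcrc1 measured 181 and 201 against 116 and 145 (-0.55, SE 0.20, limma adjusted p = 0.368), and Uqcrc2, the least abundant gene of the complex, 39.5 and 55.3 against 27.0 and 35.5 (-0.58, SE 0.23, limma adjusted p = 0.390).

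Among the small subunits of complex III, Uqcrh, the acidic hinge protein near the cytochrome c docking site, measured 909 and 977 scaled TPM against 662 and 835 and did not overlap, at -0.34. Uqcr10 overlapped at -0.16. The remaining 3 had fold changes of 0 or above. Uqcrb, a ubiquinone-binding subunit, measured 260 and 323 in wild-type hearts against 287 and 382 in heterozygous ones (0.19, SE 0.23, limma adjusted p = 0.744). Uqcrq measured 797 and 658 against 690 and 878 (0.10, SE 0.23, limma adjusted p = 0.869), and Uqcr11, the most abundant gene of the complex, 887 and 826 against 791 and 929 (0.00, SE 0.20, limma adjusted p = 0.997). All 3 overlapped between the groups, and all 3 turned negative on the unscaled TPM, on which all tested genes have a median of -0.35. In all, 6 of the 9 genes of complex III were negative. Lower without overlap were 5 (55.6%), against 24.0% of all tested genes. At an unadjusted p under 0.05, 4 were lower (44.4%), against 6.08%. The median was -0.34, which became -0.18 without heterozygous replicate 1 and -0.51 without heterozygous replicate 2.

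Cytochrome c, the mobile carrier between complexes III and IV, is encoded by Cycs. Its promoter is shown with that of Sdhd because each held the core of a binding motif of NRF-1, a transcription factor known for respiratory chain genes, with the letters in capitals. The runs are the 150 bases before the RefSeq start on GRCm38.p6, minus strand, at chr6:50566570-50566719 for Cycs, with the match beginning at -61, and at chr9:50603850-50603999 for Sdhd, with the match beginning at -78.
Cycs: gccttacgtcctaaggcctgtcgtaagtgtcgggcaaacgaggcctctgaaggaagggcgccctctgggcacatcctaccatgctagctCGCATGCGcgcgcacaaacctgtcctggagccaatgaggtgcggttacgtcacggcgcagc
Sdhd: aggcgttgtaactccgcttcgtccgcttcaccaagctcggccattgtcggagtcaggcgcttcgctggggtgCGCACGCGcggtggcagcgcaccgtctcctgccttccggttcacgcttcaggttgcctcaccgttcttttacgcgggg

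Cycs measured 63.0 and 61.3 scaled TPM in wild-type hearts against 46.3 and 58.8 in heterozygous ones, without overlap (-0.25, SE 0.19, limma adjusted p = 0.595). Without heterozygous replicate 1 the fold change was -0.08, and without heterozygous replicate 2 it was -0.42. Reads of this gene can also be placed on a near-identical gene model, Gm10053 on chromosome 19 (99.9% identity over 946 bases), and the copies of Cycs together held on average 37.7% of the summed TPM. With the copies added the log2 fold change was -0.48 (SE 0.19, limma adjusted p = 0.393), so the value of Cycs depends on how reads were divided and is uncertain.

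Complex IV, cytochrome c oxidase, had 16 tested genes of its 19, and all 16 had negative fold changes of small size, from -0.43 (Cox5a) to -0.03 (Cox4i2), with a median of -0.25. None was lower at an unadjusted p under 0.05, against 6.08% of all tested genes. In 9 (56.2%) both heterozygous hearts were lower without overlap, against 24.0% of all tested genes. Without heterozygous replicate 1 the median was -0.12, and without heterozygous replicate 2 it was -0.49. Cox4i1, the general form of subunit 4 and the most abundant gene of the complex, measured 1176 and 1328 scaled TPM in wild-type hearts against 840 and 1042 in heterozygous ones (-0.42, SE 0.22, limma adjusted p = 0.460). Its counterpart Cox4i2, known for lung and for low oxygen, was found at 6.0 and 7.48 against 6.64 and 6.47, with overlap (-0.03, SE 0.16, limma adjusted p = 0.949). Subunits outside the isoform sets behaved like Cox4i1: Cox5a, Cox6c, Cox7c and Cox7a2l, the last known for joining complexes III and IV into supercomplexes, lay without overlap between -0.43 and -0.29, while Cox5b overlapped at -0.04.

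In these hearts the muscle forms dominated each isoform pair that has one. Cox6a2, the muscle form of subunit 6a, measured 902 and 936 scaled TPM in wild-type and 625 and 821 in heterozygous hearts, without overlap (-0.36, SE 0.22, limma adjusted p = 0.518), and the general form Cox6a1 84.3 and 80.5 against 56.3 and 95.1, with overlap (-0.17, SE 0.26, limma adjusted p = 0.811). The muscle form thus made up 91.5% and 92.1% of the pair's TPM in wild-type and 91.7% and 89.6% in heterozygous hearts. Cox7a1, the muscle form of subunit 7a, measured 1094 and 1124 against 771 and 1054, without overlap (-0.30, SE 0.23, limma adjusted p = 0.596), and the general form Cox7a2 345 and 329 against 269 and 330, with overlap (-0.18, SE 0.20, limma adjusted p = 0.727). Cox7a1 was 76.0% and 77.3% of its pair in wild-type and 74.2% and 76.1% in heterozygous hearts. The muscle form of subunit 8, Cox8b, measured 828 and 763 against 655 and 824, with overlap (-0.11, SE 0.21, limma adjusted p = 0.847), and the general form Cox8a 111 and 92.7 against 87.4 and 90.9, without overlap (-0.18, SE 0.19, limma adjusted p = 0.692).

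Cox8b held 88.2% and 89.2% of the subunit 8 TPM in wild-type hearts against 88.2% and 90.1% in heterozygous ones. The shares of the muscle forms overlapped between the genotypes in subunits 6a, 7a and 8 (exact permutation test, two-sided, p = 0.667 each). The muscle share differed by -1.09 percentage points for Cox6a2, -1.53 for Cox7a1 and 0.462 for Cox8b. Single hearts set these sizes. Without heterozygous replicate 1 the differences were -2.14, -0.532 and 1.38, without heterozygous replicate 2 they were -0.0394, -2.53 and -0.457, without wild-type replicate 1 they were -1.40, -2.20 and -0.0178, and without wild-type replicate 2 they were -0.778, -0.864 and 0.941, so that the sign for Cox8b was not kept. Cox4i2 made up 0.508% and 0.560% of the subunit 4 TPM in wild-type and 0.784% and 0.617% in heterozygous hearts. Those shares did not overlap (two-sided exact permutation p = 0.333, the lowest this design allows), and their difference of 0.166 percentage points was 0.0829 without heterozygous replicate 1 and 0.250 without heterozygous replicate 2.

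**Figure D2:**
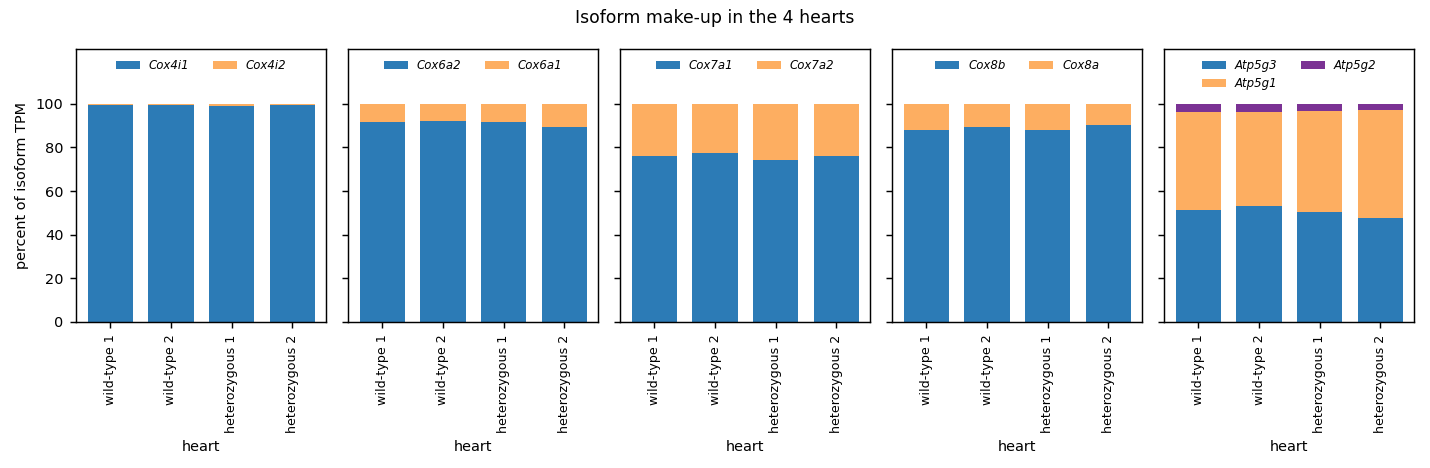
Share of each isoform in the summed TPM of its set, in percent, as stacked bars for the 2 wild-type and 2 heterozygous hearts. The muscle forms Cox6a2, Cox7a1 and Cox8b hold most of their sets in every heart, and Atp5g1 holds 45.2% and 43.0% of its set in the wild-type hearts against 46.6% and 49.5% in the heterozygous hearts.

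The other isoform sets of complex IV contained forms known from testis. Cox6b1, the general form of subunit 6b, measured 524 and 574 scaled TPM against 360 and 477, without overlap (-0.40, SE 0.22, limma adjusted p = 0.478), while the testis form Cox6b2 was found at 0.610 and 2.26 against 0.524 and 1.60, with overlap (-0.20, SE 0.37, limma adjusted p = 0.842). Replicate 1 was far below replicate 2 in both genotypes for Cox6b2, which made up at most 0.393% of its pair. Cox7b, which held 100% of its pair with Cox7b2, measured 241 and 272 against 188 and 274, with overlap (-0.17, SE 0.24, limma adjusted p = 0.777). Cox7b2 and Cox8c, known from testis, were listed at 0 in all 4 hearts.

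Complex V, the ATP synthase, contains the most abundant gene of the set, and one of the most negative. In its catalytic F1 head, Atp5b (beta subunit, which holds the catalytic sites) measured 2174 and 2206 scaled TPM in wild-type and 1825 and 2370 in heterozygous hearts, with overlap (-0.07, SE 0.22, limma adjusted p = 0.906). Atp5c1, the gamma subunit that forms the rotating stalk within the head, measured 268 and 328 against 149 and 171. Both heterozygous hearts were far below both wild-type hearts, the mean being 46.3% lower (-0.89, SE 0.20, limma adjusted p = 0.286). The alpha subunit Atp5a1, which alternates with beta in the head, measured 231 and 274 against 154 and 195, without overlap, at -0.53. Subunits of one rotor and head were thus spread from -0.89 to 0.03, since Atp5d (delta) overlapped at -0.13 and Atp5e (epsilon) measured 1217 and 1001 against 1059 and 1199 (0.03, SE 0.21, limma adjusted p = 0.962).

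In the peripheral stalk, which keeps the head from turning, Atp5pb (subunit b) measured 169 and 194 scaled TPM against 104 and 145 (-0.55), Atp5o (the oligomycin sensitivity protein) 515 and 570 against 349 and 443 (-0.46), and Atp5h (subunit d) 844 and 939 against 612 and 771 (-0.37). These 3 did not overlap between the groups, and Atp5j (coupling factor 6) overlapped at -0.18. Among the small membrane subunits, Atp5l and Atp5md did not overlap, at -0.42 and -0.36, and Atp5j2 and Atp5mpl overlapped at -0.02 and -0.03. Atp5k (subunit e, known for the dimer of the enzyme) measured 503 and 413 against 420 and 512, with overlap (0.02, SE 0.22, limma adjusted p = 0.970). Atp5e and Atp5k turned negative with TPM as deposited. Over complex V, 15 of 17 tested genes were negative and the median was -0.36. Lower without overlap were 9 (52.9%), against 24.0% of all tested genes. At an unadjusted p under 0.05, 4 were lower (23.5%), against 6.08%. Without heterozygous replicate 1 that median was -0.14, and without heterozygous replicate 2 it was -0.55.

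**Figure D3:**
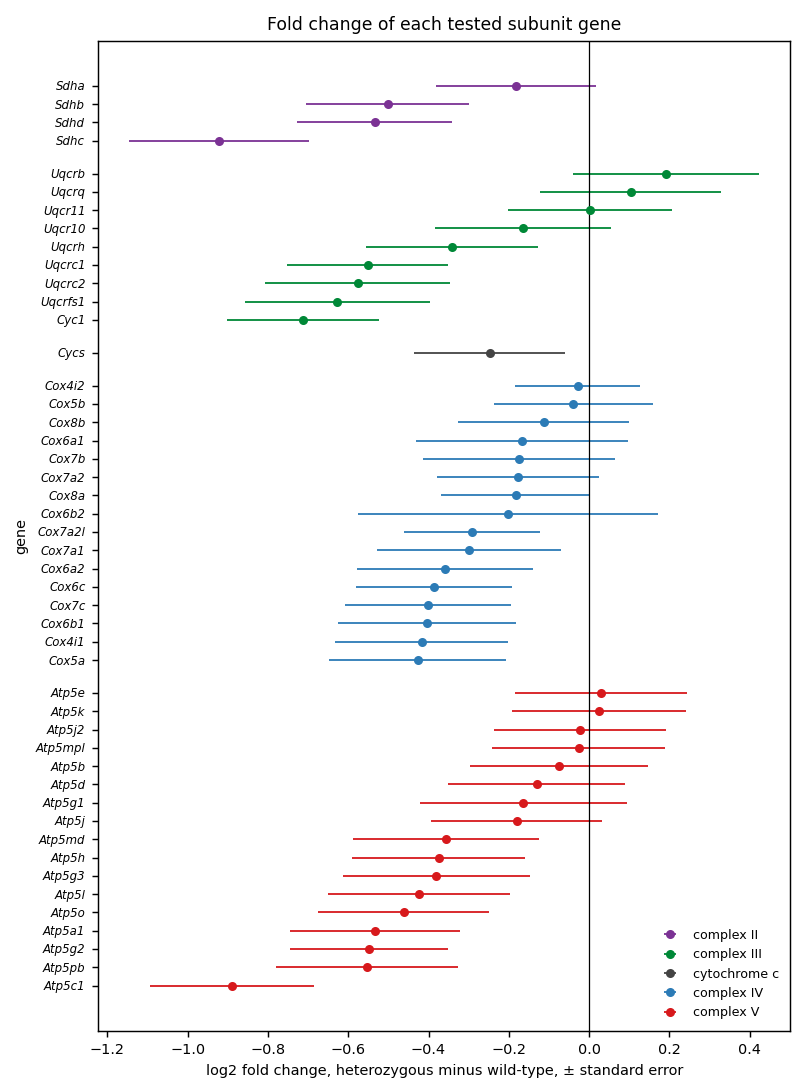
Log2 fold change (heterozygous minus wild-type, log2(scaled TPM + 1) scale) of the 47 tested genes by complex, with the limma standard error as bars. Of the 47 genes 42 lie below 0, from -0.92 in Sdhc to 0.19 in Uqcrb.

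The c subunit, which forms the rotor ring in the membrane, is made from 3 genes, Atp5g1, Atp5g2 and Atp5g3, that encode the same mature protein with different import sequences. The last 60 coding bases of each, from the GENCODE M21 transcripts on GRCm38, are shown to make plain how reads of these transcripts can be told apart. Capitals mark the 18 positions at which the 3 are not all the same. Over the last 210 coding bases Atp5g1 and Atp5g2 were 84.3% identical, Atp5g1 and Atp5g3 80.5%, and Atp5g2 and Atp5g3 78.6%.
Atp5g1: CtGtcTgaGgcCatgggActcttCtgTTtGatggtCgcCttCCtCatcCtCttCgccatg
Atp5g2: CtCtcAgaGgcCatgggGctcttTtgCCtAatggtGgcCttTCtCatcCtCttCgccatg
Atp5g3: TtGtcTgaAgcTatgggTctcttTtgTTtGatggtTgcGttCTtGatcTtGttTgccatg

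Atp5g3 measured 871 and 934 scaled TPM in wild-type hearts against 588 and 816 in heterozygous ones, without overlap (-0.38, SE 0.23, limma adjusted p = 0.517). Atp5g1 measured 771 and 754 against 545 and 849, with overlap (-0.16, SE 0.26, limma adjusted p = 0.810). Atp5g2, the rarest of the 3 and the least abundant gene of complex V, measured 62.2 and 64.9 against 37.5 and 49.5, without overlap (-0.55, SE 0.20, limma adjusted p = 0.368). As shares of their sum, which do not depend on the scaling of libraries, Atp5g1 held 45.2% and 43.0% in wild-type and 46.6% and 49.5% in heterozygous hearts. Atp5g3 held 51.1% and 53.3% against 50.2% and 47.6%, and Atp5g2 3.65% and 3.70% against 3.20% and 2.89%. The share of Atp5g1 was higher by 3.92 percentage points (2.44 without heterozygous replicate 2) and that of Atp5g3 differed by -3.29 points (-1.97 without heterozygous replicate 2), each without overlap, and each exact permutation test (two-sided) gave p = 0.333, the smallest possible.

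Near-identical copies elsewhere in the genome can take or give reads. Of the 47 tested members, 18 had at least 1 copy with at least 95% identity over at least 80% of its length, and in 3 the copies held over 5% of the summed TPM. The clearest was Atp5l, subunit g of complex V on chromosome 9, whose processed pseudogene Gm10221 on chromosome 5 was 100% identical over its 309 bases. The first 60 coding bases of Atp5l and the same stretch of Gm10221 are printed to show that no base separates them.
Atp5l: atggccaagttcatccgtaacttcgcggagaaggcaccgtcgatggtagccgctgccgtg
Gm10221: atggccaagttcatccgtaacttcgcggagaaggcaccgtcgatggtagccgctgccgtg

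The copies of Atp5l held on average 48.2% of the summed TPM, and with them added its log2 fold change moved from -0.42 to -0.51. For Atp5g2 the copies, chiefly Gm10175 (100% over 645 bases), held 35.3%, and the fold change moved from -0.55 to -0.39. In Atp5l, Atp5g2 and Cycs the direction remained negative with the copies added, and no adjusted p fell under 0.05. The level given for each of these 3 genes is therefore uncertain, and so is the share of Atp5g2 among the c subunit genes.

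The make-up of the set can be read without any scaling. The members together held 2.63% and 3.10% of all TPM in wild-type hearts against 1.51% and 2.13% in heterozygous ones, without overlap. That share falls where mitochondrial genes and their copies take more. All genes outside these, members included, held 21.2% and 24.0% against 14.2% and 17.6%, also without overlap. Of the TPM outside mitochondrial genes and their nuclear copies, they held 12.4% and 12.9% against 10.7% and 12.1%, again without overlap, though the nearest hearts of the 2 groups stood at 12.4% and 12.1%. Within the members' own TPM, complex II held 1.45% and 1.61% against 1.28% and 1.29%, and complex IV 34.0% and 34.6% against 32.7% and 32.2%. Complex III held 17.2% and 16.9% against 18.2% and 18.0%, and complex V 47.1% and 46.7% against 47.6% and 48.2%. All of these shares lay apart between the genotypes (exact permutation test, two-sided, p = 0.333 each, the smallest possible), while cytochrome c stayed near 0.251% (p = 1.0 by the same exact test).

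The subunits of the same complexes that are made from mitochondrial DNA were set beside the nuclear ones as the log2 ratio of their mean TPM. For complex IV (mt-Co1, mt-Co2 and mt-Co3 over the 16 nuclear genes) the log2 ratio was 7.05 and 6.65 in wild-type hearts against 7.90 and 7.32 in heterozygous ones. For complex III (mt-Cytb) it was 6.45 and 6.28 against 7.28 and 6.85, and for complex V (mt-Atp6 and mt-Atp8) 6.97 and 6.76 against 7.92 and 7.23. In all 3 complexes both heterozygous hearts lay above both wild-type hearts, by a mean of 0.69 for complex III, 0.76 for complex IV and 0.71 for complex V (exact permutation test, two-sided, p = 0.333 each). With the nuclear copies of the mitochondrial genes added, the difference was 0.90 for complex IV and 0.75 for complex V. The nuclear genes at large moved in the same direction: the log2 ratio of the mean TPM of all 37 mt- genes to that of the 9964 other tested nuclear genes was 9.90 and 9.64 against 10.53 and 10.11, a difference of 0.55. Whether the difference for the respiratory subunits exceeded that of other nuclear genes was not tested.

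**Figure D4:**
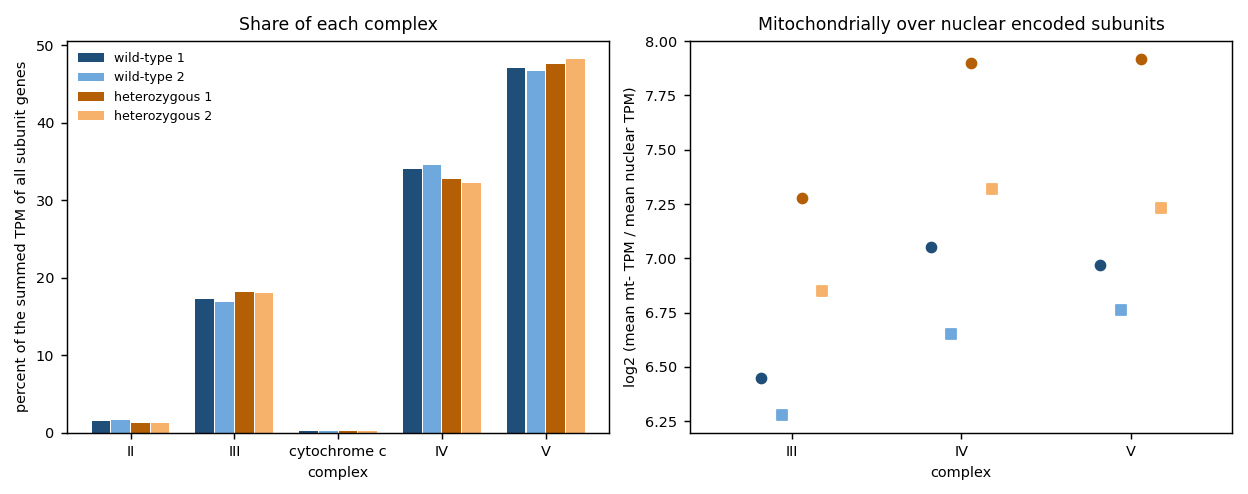
Left, share of each complex in the summed TPM of all subunit genes, in percent, for the 4 hearts (bars from 0). Right, log2 ratio of the mean TPM of mitochondrially encoded to that of nuclear encoded subunits in complexes III, IV and V, 1 point a heart in the same colours, with both heterozygous hearts above both wild-type hearts in each complex.

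The fold changes of the members went with annotated transcript length, the median over all annotated coding transcripts of a gene. That length can differ from the length of the transcript present in these hearts, which was not known. Atp5g1 stands at 2675.5 bases with a coding sequence of 411, and Uqcrc1 at 533 bases. Genes can therefore stand in the wrong length class. The 19 members with an annotated length under 600 bases had a median log2 fold change of -0.17 and 14 of them were negative. The 15 from 600 to 1000 bases had a median of -0.38, and the 13 of 1000 bases and over a median of -0.50. All members of both longer classes were negative, and 7 of the 11 that were lower at an unadjusted p under 0.05 were in the longest class. Across the 47 genes, Pearson's r between log2 length and fold change was -0.28 and Spearman's rho -0.41, and across all tested genes with a length both were 0.07. The fold changes of the members also went with their mean level (r = 0.23, rho = 0.35), against -0.00 and -0.01 over all those genes. Length and level were not separated by a test. Genes of one library share its preparation and are not independent replicates, so these are descriptions. A correction of each library for length and GC content was chosen after the data were seen. With it 38 members were negative and 13 were lower at an unadjusted p under 0.05, against 6.97% of all tested genes. The median of the members was then smaller in size, -0.23 against -0.30 in the reported fit. Complex III moved from -0.34 to -0.23 and complex V from -0.36 to -0.23.

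**Figure D5:**
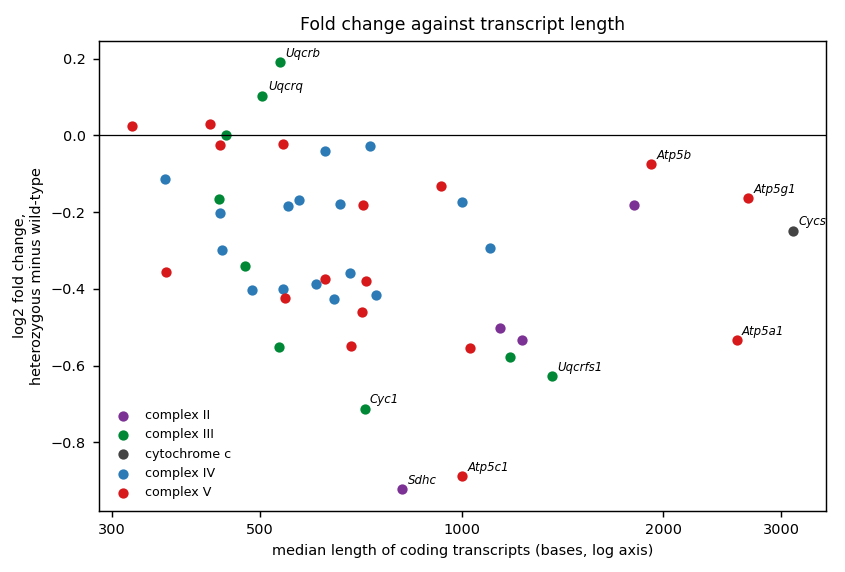
Log2 fold change of each of the 47 tested genes against the median length of its coding transcripts (bases, log axis), coloured by complex. Genes with fold changes of 0 or above all have a median annotated length under 600 bases, and all genes of 600 bases and over lie below 0.

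Related genes were read in the same fit. Of the 42 listed assembly factors of complexes II to V, 38 were tested and 26 were negative. At an unadjusted p under 0.05, 3 were lower (7.89%) and 1 was higher, against 6.08% and 6.22% of all tested genes. Their median was -0.14, closer to that of all genes than the subunits were. Uqcc1, a factor for the assembly of complex III, measured 17.1 and 15.3 scaled TPM in wild-type hearts against 8.28 and 9.38 in heterozygous ones (-0.81, SE 0.16, limma adjusted p = 0.261). Sdhaf2, which attaches the flavin to Sdha, went the other way, with 5.71 and 5.89 against 9.75 and 8.06 (0.54, SE 0.15, limma adjusted p = 0.334). Both lay without overlap. Coa7, for complex IV, had a fold change of -0.63, Lrpprc, which stabilises mitochondrial transcripts, -0.34, and Fmc1, for complex V, -0.57, and none of the 38 was called. Of 38 tested nuclear subunits of complex I, 36 were negative and 7 were lower at an unadjusted p under 0.05 (18.4%), with a median of -0.24. Of 78 mitochondrial ribosomal protein genes 58 were negative and 12 lower at that p (15.4%), with a median of -0.17.

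The promoters of the members were searched for motifs on both strands in the 250 bases before the RefSeq start. That window could be matched for 36 of the 47 tested members. Not searched were Atp5a1, Atp5mpl, Cox4i1, Cox4i2, Cox6a2 (a muscle form), Cox6c, Cyc1, Sdhc, Uqcrb, Uqcrc2 and Uqcrq. Matches to different motifs could overlap. The core of the NRF-1 motif (CGCANGCG) was found in 9 of the 36 (25.0%), among them Cycs, Sdha, Sdhd and Atp5g2, against 15.5% of 7767 windows of the same length before tested genes. The GABP or ETS motif (CCGGAAG), of a factor known to act on respiratory genes, was found in 8 (22.2%) against 15.1%. The Sp1 motif (GGGCGG) was found in 11 (30.6%) against 60.7%. A TATA box (TATAAA) was found in 2 (5.56%) against 6.33%, the E-box CAGCTG in 2 (5.56%), one of them Cox8b, against 11.5%, and the muscle motif of MEF2 (TAAAAATA) in 0 against 1.33%. These matches are letters in a window and were not tested against the expression values.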

How the data were processed

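RNA-seq of 4 hearts (2 wild-type, 2 heterozygous, all 8 weeks old) was read from 1 table of TPM values. Per the labels and methods, the authors trimmed reads with Trim Galore, aligned them to mm10 with STAR, and quantified genes with RSEM, and the deposited TPM are per gene and library, with no pooling of replicates. The annotation release is not given in the sources used here. TPM hold no counts, so depth, counting intervals and count models were not available. The library protocol in the methods was written for embryonic hearts. The study's own differential calls, made with DESeq2, were not used.

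TPM were divided by median-of-ratios factors over the 17041 genes above 0 in every library (1.08 and 1.27 for wild-type, 0.821 and 0.910 for heterozygous). Genes with a mean of at least 1 TPM were fitted as log2(scaled TPM + 1) on genotype in limma 3.58.1 (R 4.3.3). The fit used empirical Bayes with a trend and was two-sided, with Benjamini-Hochberg over all 10036 tested genes. A test on simulated data came first. Its changes were larger than any of the members, so it does not speak to changes of their size. The pseudocount of 1 makes fold changes of low genes smaller than they are. A call needed an adjusted p under 0.05 and a fold above 1.5. Shares and log2 ratios were compared by exact permutation over samples. Near-identical copies were sought with BLAST+ 2.17.0. In full (all 4 libraries, fold change, SE, adjusted p), 30 genes are given: the highest and lowest in level in each complex, up to 6 with the smallest p in each direction (5 had a positive fold change), and the isoform sets, of which Cox7b2 and Cox8c were at 0 and have no fold change. Further members and the 5 assembly factors of smallest p are given in part. Members and lists were chosen with earlier results of these data known. Alternatives covered scaling, pseudocount, low-value filter, empirical Bayes options, a replicate block, length and GC content, copies, and each library left out.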

Additional observations from a re-analysis of the deposited data

How the results depend on the processing

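In all 17 alternatives to the reported fit 0 members were called and 0 were higher at an unadjusted p under 0.05, and the smallest adjusted p of a member ranged from 0.0612 to 0.912 (limma). TPM carry no depth, so counting error could not be assessed, and 2 hearts a group limit every exact test to p = 0.333. The settings that removed nuclear copies of mitochondrial genes or corrected for length and GC content were chosen after the data were seen.

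Scaling moved most values. With TPM as deposited, members lower at an unadjusted p under 0.05 numbered 28 (with 33.3% of all tested genes lower), with median fold changes of -0.74 (all members), -0.95 (complex II), -0.78 (III), -0.68 (cytochrome c), -0.67 (IV) and -0.79 (V), while the median of all tested genes was -0.35. With mitochondrial genes removed the count was 36 (28.5% of all tested genes) and the medians -0.62, -0.85, -0.67, -0.57, -0.57 and -0.68 in the same order, against -0.31 for all tested genes. With their nuclear copies removed too, the count was 17 (4.03% of all tested genes) and all tested genes stood at 0.05. Quantile normalization gave smaller medians, -0.19, -0.47, -0.17, -0.21, -0.13 and -0.23 in the same order, with 16 members lower (6.12% of all tested genes). Signs turned in Uqcr11 (-0.44 with TPM as deposited, -0.32 with mitochondrial genes removed), Uqcrb (-0.25, -0.13), Uqcrq (-0.33, -0.22), Atp5e (-0.41, -0.30) and Atp5k (-0.41, -0.30). With the copies removed Cox4i2 turned to 0.04, Cox5b to 0.03, Atp5j2 to 0.05 and Atp5mpl to 0.05. With the length and GC correction, with or without the replicate block, they turned to 0.00, 0.01, 0.06 and 0.07. Under quantile normalization Cox8b turned to 0.00, Cox5b to 0.13 and Atp5mpl to 0.05. The median of the members' log2 levels differed by -0.02 between the groups when scaled and by -0.46 as deposited. That median falls on different genes in different libraries. Read by median log2 levels in place of sums, the difference of complex V from all members was -0.20, opposite in sign to its share of TPM.

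Calls over all genes (3 lower, 0 higher) became 11 and 2 with TPM as deposited, 12 and 2 with mitochondrial genes removed, and 0 lower without the low-value filter. Higher calls became 2 with robust empirical Bayes, 2 with copies removed and 1 with the length and GC correction. At an adjusted p under 0.1 with no fold limit there were 5 calls. The replicate number as a block gave 8 and 3 calls, or 5 and 2 with the length and GC correction. With the block alone, 11 members were lower at an unadjusted p under 0.05, against 7.46% of all tested genes. The labels do not say that equal numbers mark a shared litter or day, and 2 pairs are too few to show it (the correlation of same-numbered deviations was 0.1005 over all tested genes and 0.377 over the members), so the numbers are not treated as a pairing.

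Leaving out 1 library at a time gave 3 to 18 lower and 3 to 11 higher calls over all genes. Members lower at an unadjusted p under 0.05 numbered 1 to 31. Of all tested genes 2.58% were lower in the first case (without wild-type replicate 2) and 12.5% in the last (without heterozygous replicate 2). Each such fit leaves a single heart in its group, so these counts are not read as results about the members. The medians ranged from -0.53 to -0.15 for all members and from -0.42 to -0.08 for cytochrome c. Those of complex IV ranged from -0.49 to -0.12 and those of complex V from -0.55 to -0.14. The fold change crossed 0 in Uqcr11 (-0.12 to 0.11), Cox6b2 (-0.71 to 0.29), Atp5b (-0.27 to 0.11), Uqcrb (-0.02 to 0.39), Uqcrq (-0.08 to 0.27), Atp5e (-0.11 to 0.16), Atp5k (-0.12 to 0.16), Cox4i2 (-0.17 to 0.11), Cox6a1 (-0.54 to 0.20), Cox7b (-0.45 to 0.09), Cox8b (-0.28 to 0.05), Atp5g1 (-0.49 to 0.15), Sdha (-0.38 to 0.01), Uqcr10 (-0.36 to 0.02), Cox5b (-0.17 to 0.08), Atp5d (-0.35 to 0.08), Atp5j (-0.38 to 0.01), Atp5j2 (-0.23 to 0.18) and Atp5mpl (-0.15 to 0.09). For each the cause was not tested.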
